A study of Mus musculus with 36 samples.

Results

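Contact profiles of 4 developmental gene loci were compared between mouse embryonic stem cells (ES) that lack Whsc1 (Whsc1-/-, KO) and ES labelled wild type (Whsc1+/+, WT), all at day 0. The comparison uses 8 of the 16 deposited columns of contact scores, 1 per genotype at each of the viewpoints Foxa2, Gata4, Gata6 and T, and each column pools 2 of the 16 libraries that the labels list for ES. Its members are the positions with a finite score in both genotypes, which came to 4130 of 4314: T had 1033, Gata6 1041, Gata4 1073 and Foxa2 983. The embryoid bodies (EB) of the series, aggregates grown to day 6 in which ES differentiate, have the same 4130 usable positions and are set beside the ES values where stated. The labels give ES media with the inhibitors PD0325901 and CHIR99021 and leukaemia inhibitory factor, or with serum, without saying which was used for the contact libraries. The labels give no strain, sex or origin of the KO allele or clone. The 4 RNA-seq libraries were not analysed here, so neither the genotype nor the ES state was checked by expression.

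Whsc1, also called Nsd2, is a histone methyltransferase that places dimethyl marks on lysine 36 of histone H3, a mark found mainly over transcribed genes and in the regions between genes. T (Brachyury) encodes a T-box factor of early mesoderm, Foxa2 a forkhead factor needed for endoderm and midline tissues, and Gata4 and Gata6 zinc-finger factors of heart and endoderm. In pluripotent cells such genes are held at low expression and are switched on as germ layers form. UMI-4C ligates neighbouring DNA ends in fixed nuclei and counts, with molecular identifiers, those joined to a chosen fragment, the viewpoint. A contact profile falls steeply with distance from the viewpoint, and regions that stand above that fall are candidates for contacts with distant elements or domain edges.

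The Foxa2 viewpoint is position 148046914 on chromosome 2 of mm10, that of Gata4 is 63245606 on chromosome 14, and that of T is 8433756 on chromosome 17. Those of Foxa2, Gata4 and Gata6 fall inside the annotated span of the gene, and that of T falls in LOC115486424, a gene model that overlaps the start of T. In the RefSeq promoter table of GRCm38.p6 the Foxa2 viewpoint lies 55 bases from the outermost start site of Foxa2, on the transcribed side, and the T viewpoint lies 667 bases before the start site of T. Gata4 and Gata6 have no entry in that table. The 250 bases before the start site follow for Foxa2 and T, which show what lies beside these viewpoints, and for Ccr6, Mpc1 and Sft2d1, protein-coding genes on the distal lower side of T, where the shapes of the 2 genotypes differed. Each is written 5′ to 3′ on the gene's strand with CG dinucleotides in capitals, and CG reads the same on both strands.
Foxa2 (chr2:148046970-148047219, minus strand): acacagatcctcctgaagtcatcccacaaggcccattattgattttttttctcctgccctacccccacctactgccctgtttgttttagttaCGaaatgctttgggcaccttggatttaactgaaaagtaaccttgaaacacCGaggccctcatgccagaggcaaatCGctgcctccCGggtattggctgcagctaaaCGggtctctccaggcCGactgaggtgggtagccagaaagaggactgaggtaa
T (chr17:8434173-8434422, plus strand): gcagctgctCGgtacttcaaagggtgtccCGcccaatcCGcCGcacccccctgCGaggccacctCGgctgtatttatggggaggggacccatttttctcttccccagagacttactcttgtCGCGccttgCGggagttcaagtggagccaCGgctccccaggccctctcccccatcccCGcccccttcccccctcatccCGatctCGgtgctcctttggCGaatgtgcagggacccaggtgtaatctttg
Ccr6 (chr17:8235793-8236042, plus strand): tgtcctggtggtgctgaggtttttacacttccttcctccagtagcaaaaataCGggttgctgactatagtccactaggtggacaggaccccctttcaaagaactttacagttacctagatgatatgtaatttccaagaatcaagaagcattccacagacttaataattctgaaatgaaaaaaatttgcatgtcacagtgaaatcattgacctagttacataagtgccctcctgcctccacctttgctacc
Mpc1 (chr17:8283537-8283786, plus strand): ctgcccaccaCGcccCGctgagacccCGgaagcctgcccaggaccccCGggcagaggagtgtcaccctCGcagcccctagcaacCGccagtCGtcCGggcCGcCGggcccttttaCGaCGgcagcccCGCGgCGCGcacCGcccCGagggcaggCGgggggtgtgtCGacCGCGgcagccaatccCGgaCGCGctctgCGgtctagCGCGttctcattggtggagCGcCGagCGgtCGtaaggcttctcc
Sft2d1 (chr17:8310853-8311102, plus strand): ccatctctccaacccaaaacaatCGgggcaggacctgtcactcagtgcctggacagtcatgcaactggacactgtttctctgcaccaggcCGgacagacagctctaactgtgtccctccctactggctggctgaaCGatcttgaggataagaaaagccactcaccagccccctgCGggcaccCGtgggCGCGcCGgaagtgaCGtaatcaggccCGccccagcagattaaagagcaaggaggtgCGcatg
The counts of CG were 6 for Foxa2, 14 for T, 1 for Ccr6, 32 for Mpc1 and 11 for Sft2d1. Among all 32851 promoter windows of this length, 92.1% held at least 1 CG, 50.4% held at least as many as Foxa2, 29.4% as many as T and 4.58% as many as Mpc1. Mpc1 and Ccr6 thus stand near opposite ends of the range.

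The scores are the authors' values on a scale that no label or header states. No replicate values, errors or depths can be had from pooled columns, so every difference below is between single profiles, in score units, with no test. The level of the profiles differed between genotypes by locus. Over windows of 10 kb counted outward from the viewpoint, KO minus WT had a median of -0.28 at T, 0.047 at Gata6, 0.30 at Gata4 and 0.17 at Foxa2. Since the 2 genotypes look scaled separately, a level cannot be read as more or less contact, and shape is described after the median of each viewpoint was removed, which is called the centred difference. Across windows, the WT and KO profiles correlated with Pearson's r of 0.970 for T (42 windows), 0.976 for Gata6 (40), 0.996 for Gata4 (41) and 0.993 for Foxa2 (38). These describe profiles that share the fall with distance and that change smoothly, so neighbouring windows are not independent. The plot of scores by distance shows how closely the 2 lines follow each other.

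**Figure D1:**
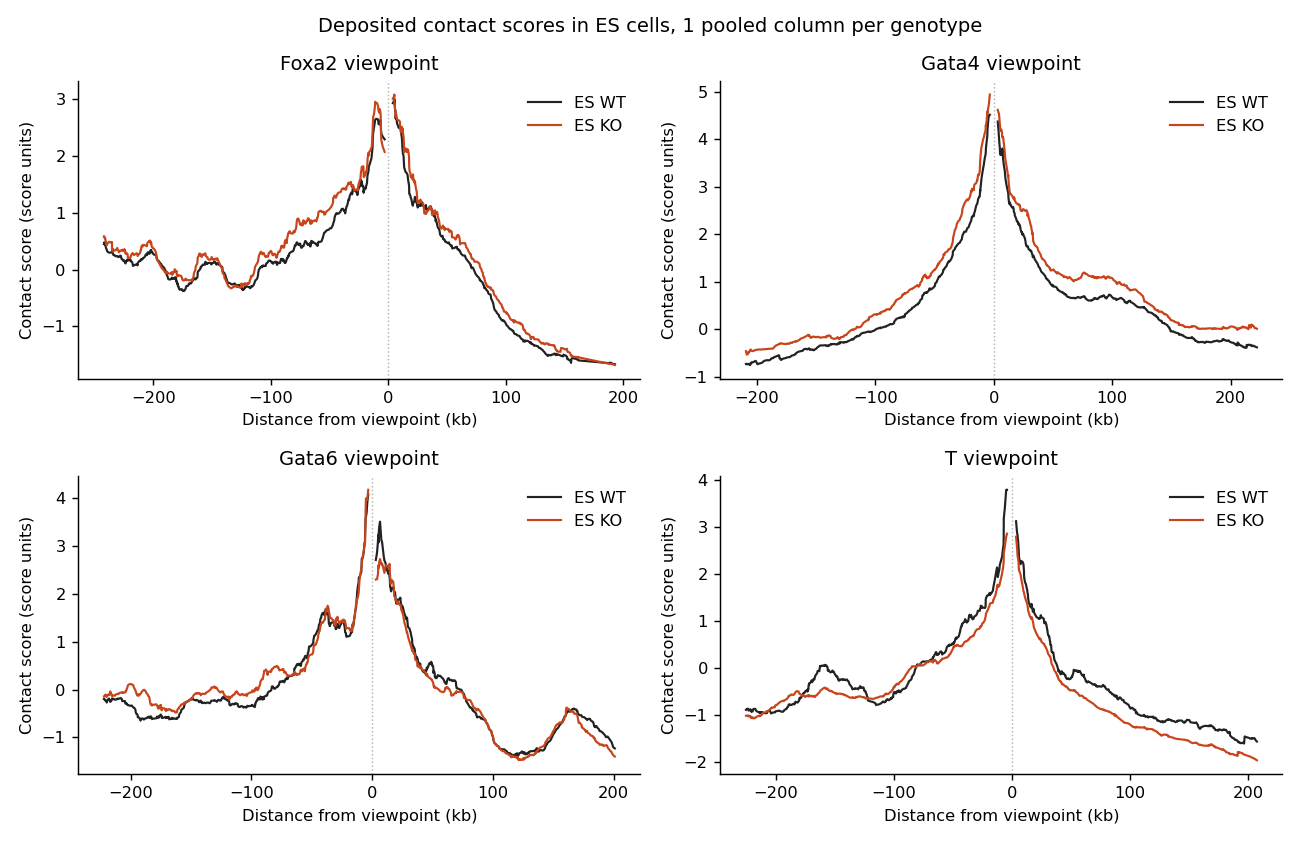
Contact score (score units, vertical) against distance from the viewpoint in kb (horizontal, negative on the lower-coordinate side) at each usable position, in ES WT (black) and ES KO (orange), 1 pooled column per line. KO lies above WT along most of Gata4 and Foxa2 and below it along most of T, and on the lower side of T the hump of WT near 155 kb is flatter in KO.

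The unevenness that remained was greater at T and Gata6 than at Foxa2 and Gata4. The SD of KO minus WT across windows, which a constant shift cannot change, was 0.21 at T and 0.19 at Gata6, against 0.11 at Foxa2 and 0.11 at Gata4. A centred difference of at least 0.25 score units, a size chosen with earlier results of these data known, was reached in 19 of 161 windows (11.8%), 15 higher in KO (9.32%) and 4 lower (2.48%). They were 8 of 42 windows at T (19%), all higher in KO, and 8 of 40 at Gata6 (20%), 4 in each direction. Gata4 had 2 of 41 (4.88%) and Foxa2 had 1 of 38 (2.63%), all higher in KO. The split between directions depends on the centring: it was 16 higher and 8 lower when only windows from 100 kb outward set the median, 11 and 5 about a line fitted to KO on WT, and 45 and 28 with no centring. Joined where they were neighbours, the windows past the size formed 8 blocks. On the lower side, 5 were higher in KO at T, Gata6 and Gata4, and 1 of the same kind was at Foxa2. The other 2 were on the higher side of Gata6 and lower in KO. The block at Foxa2 and that at 50 to 60 kb above Gata6 were single windows.

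**Figure D2:**
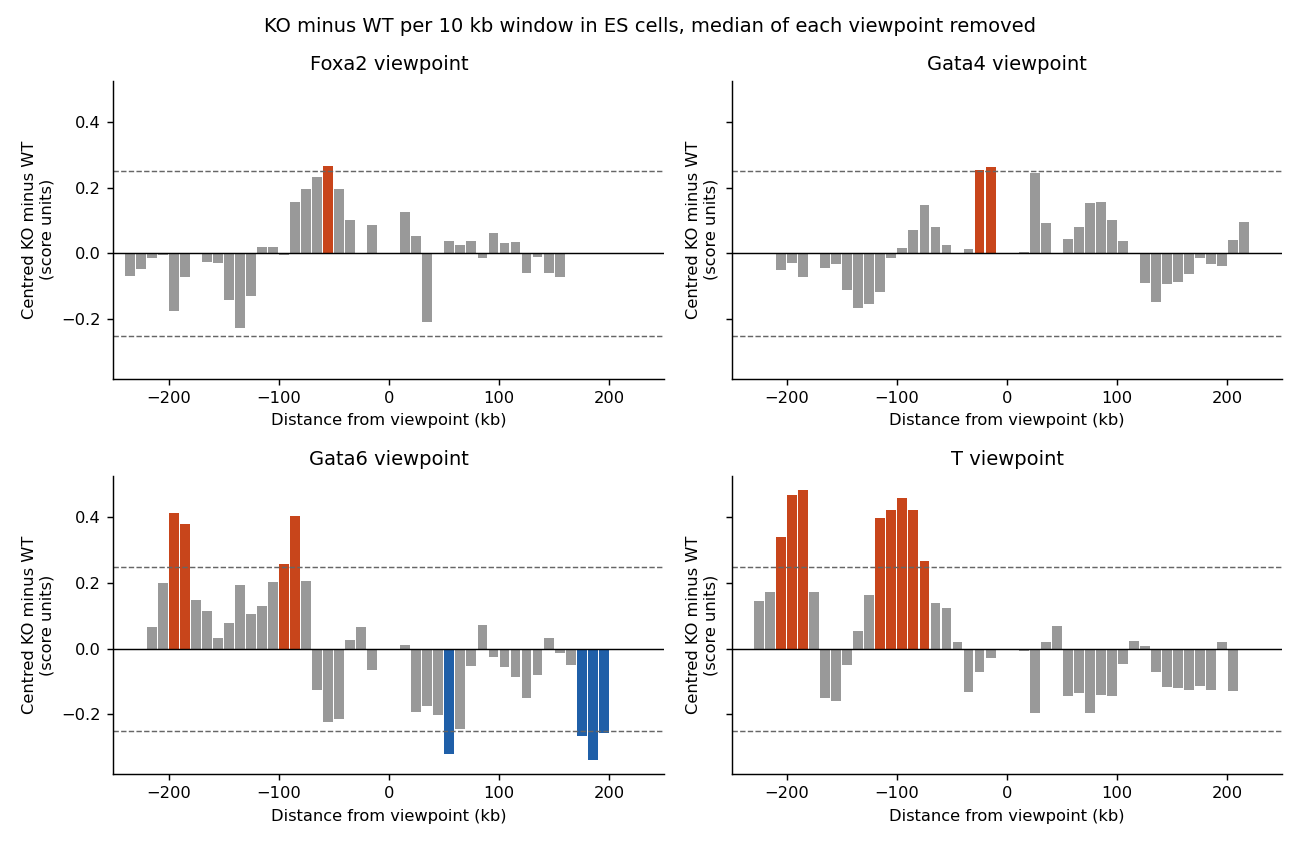
Centred KO minus WT (score units, vertical) of each 10 kb window against its distance from the viewpoint in kb (horizontal, negative on the lower-coordinate side), with dashed lines at 0.25 either way. Orange bars are past the size and higher in KO, blue bars past it and lower in KO, and the 8 orange bars of T are all on the lower side.

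At T, the genotypes differed in shape on the lower side, from 70 to 120 kb and from 180 to 210 kb away. The first block (chr17:8313757-8363756) spans part of T2, a gene beside T, the genes Gm46592 and Prr18, and part of Sft2d1, which encodes a membrane protein of vesicle transport. Its mean score was -0.39 in WT and -0.28 in KO, a centred difference of 0.39 with a peak of 0.46 at 90 to 100 kb. The second block (chr17:8223757-8253756) holds part of Ccr6, a chemokine receptor gene, and had -0.87 in WT and -0.72 in KO, a centred difference of 0.43 with a peak of 0.48 at 180 to 190 kb. With no centring these 2 blocks differed by 0.11 and 0.15, under the size, so that their call rests on the removal of the median of -0.28. Between the blocks, from 140 to 170 kb, KO was the lower of the 2 columns before and after centring.

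There lies a hump of the WT profile between Mpc1, the gene of a mitochondrial pyruvate carrier subunit, and the long non-coding RNA Gm33799. In WT the score climbed from -0.76 at 110 to 120 kb to -0.033 at 150 to 160 kb and came down to -0.95 at 200 to 210 kb. In KO the same windows had -0.64, -0.48 and -0.89. The top therefore stood above the nearer dip by 0.72 in WT and 0.17 in KO, and above the farther dip by 0.92 in WT and 0.41 in KO. These differences within a profile need no centring, but the 3 windows were chosen after the values were seen. The top window (chr17:8273757-8283756) lies between the start sites of Gm33799 and Mpc1, and within 5 kb of these start sites the mean score was 0.0023 in WT and -0.49 in KO at Gm33799, and -0.15 and -0.53 at Mpc1, whose CG-rich promoter is printed above. Position-to-position change on this side of T was smaller in KO, at 0.62 times that of WT, and on the higher side, which has no such hump, it was 0.63 times. At the other viewpoints the same ratio ran from 0.94 on the higher side of Gata6 to 1.21 on the lower side of Foxa2. The part of the smoother KO column of T in the flatter hump was not tested. In EB the same windows had the genotypes in the other order. The window at 150 to 160 kb exceeded that at 110 to 120 kb by 0.010 in WT and 0.98 in KO. It was not a top there: EB WT was higher at 140 to 150 kb (-0.75 against -0.82), and EB KO at 180 to 190 kb (-0.058 against -0.13).

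**Figure D3:**
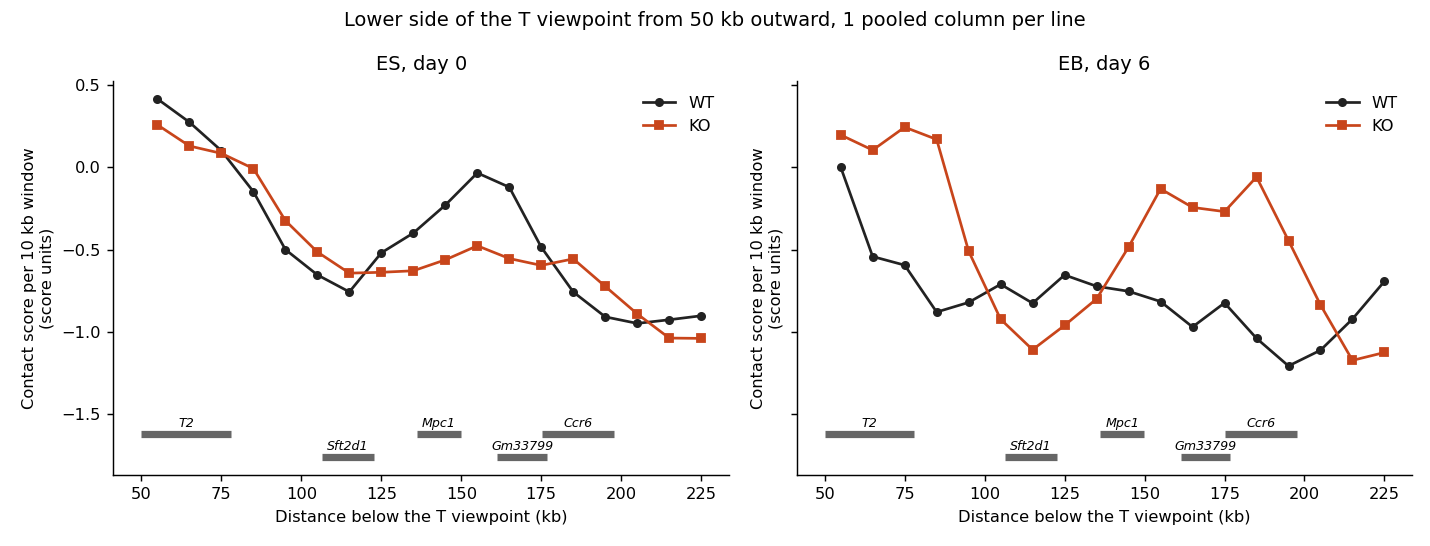
Mean contact score per 10 kb window (score units, vertical) against distance below the T viewpoint in kb (horizontal), from 50 kb outward, in WT (black circles) and KO (orange squares) of ES on the left and EB on the right, with gene spans as grey bars. In ES the WT line has a top of -0.033 at 150 to 160 kb where KO has -0.48, and in EB the KO line has -0.13 and WT -0.82 there.

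The higher side of T was more even. No window there reached 0.25, and the centred differences ran from -0.20 at 70 to 80 kb and -0.20 at 20 to 30 kb to 0.070 at 40 to 50 kb. Over the covered part of Pde10a, a cyclic nucleotide phosphodiesterase gene that fills this side from 91.4 kb outward, the mean was -1.20 in WT and -1.56 in KO, a centred difference of -0.076. Between 50 and 100 kb the 2 sides of T differed most: the centred mean was 0.30 on the lower side (SD over positions 0.16, 115 positions) and -0.15 on the higher side (SD 0.048, 113 positions). Such an SD is the spread over neighbouring positions, with no replicate behind it. The windows of the lower side had a positive centred difference in 16 of 22 cases, those of the higher side in 5 of 20. Removal of the median leaves as many windows of a viewpoint above 0 as below it, so these 2 counts are tied. As deposited, KO was above WT in 7 of the 42 windows, all on the lower side.

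At Gata6 (viewpoint at 11053621 on chromosome 18), KO was higher relative to WT on the lower side and lower on the higher side. Removal of the median ties the counts by side at Gata6 as it does at T. The centred difference was positive in 17 of 21 lower-side windows and in 3 of 19 higher-side windows, with means of 0.11 and -0.13. The constant removed was only 0.047, so the differences as deposited lie close to these. On the lower side, 80 to 100 kb away and within the long non-coding RNA Gm35814 (chr18:10953622-10973621), the mean score was -0.16 in WT and 0.22 in KO, a centred difference of 0.33. From 180 to 200 kb, around the pseudogene Gm18764 (chr18:10853622-10873621), it was -0.54 in WT and -0.10 in KO, a centred difference of 0.40. In this stretch KO was already climbing while WT was still low: the window at 190 to 200 kb exceeded that at 160 to 170 kb by 0.40 in KO and by 0.10 in WT. These windows too were chosen after the values were seen. Farther out, at 210 to 220 kb, WT had -0.22 and KO -0.11, a centred difference of 0.067. Closer in, the lower side went the other way, with a centred value of -0.22 at 40 to 50 and again at 50 to 60 kb, near the long non-coding RNA 9130001E16Rik.

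Above the Gata6 viewpoint, in blocks with no annotated gene, KO was lower at 50 to 60 kb by a centred -0.32 (WT 0.32, KO 0.043) and from 170 to 200 kb by -0.29 (WT -0.78, KO -1.02). As deposited the second block had -0.24, and of its windows only that at 180 to 190 kb then reached the size, at -0.29. It is the outer flank of a bump with its top at 160 to 170 kb, where the scores were nearly equal at -0.45 in WT and -0.46 in KO. The top stood above the dip at 110 to 120 kb by 0.90 in WT and 0.94 in KO, and above the window at 190 to 200 kb by 0.57 and 0.78. The bump was thus present in both genotypes at the same place, with a steeper outer flank in KO.

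The lower-minus-higher difference, taken over distances present on both sides, puts the same contrast into 1 value per locus. T had 0.62 in WT and 0.87 in KO (20 distances), Gata6 had 0.42 and 0.66 (19), Foxa2 had 0.73 and 0.78 (15), and Gata4 had -0.34 and -0.35 (20). KO minus WT was therefore 0.25 at T and 0.24 at Gata6, against 0.051 at Foxa2 and -0.015 at Gata4. No constant shift between the columns changes these values. The Foxa2 value is a mean over distances that partly cancel. There the centred means of the lower and higher side were 0.16 and 0.024 from 50 to 100 kb, but -0.094 and -0.014 from 100 to 150 kb.

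At Gata4, 2 windows passed the size after centring, both within the Gata4 gene. The 3 highest centred differences lay in windows that overlap Gata4, at 0.26 and 0.25 from 10 to 30 kb below the viewpoint (chr14:63215607-63235606) and 0.246 at 20 to 30 kb above it. The other 3 windows that overlap the gene were near 0, at 0.013 and 0.0020 from 30 to 50 kb below the viewpoint and 0.0045 at 10 to 20 kb above it, although the last has a high score of 2.61 in WT. It was lowest at 130 to 140 kb and 120 to 130 kb on the lower side, at -0.17 and -0.15, beside and over the end of Ctsb, the cathepsin B gene, and at -0.15 in Blk, a tyrosine kinase gene of B cells, on the higher side. A line through KO against WT had a slope of 1.08, the steepest of the loci, against 1.04 at Foxa2, 0.97 at Gata6 and 0.97 at T. About that line the 2 windows past the size had 0.076 and 0.11, and the SD across windows was 0.082 in place of 0.11. The sides were alike by distance band: the centred means were 0.15 and 0.13 under 10 kb, 0.12 and 0.089 from 10 to 50 kb, 0.069 and 0.11 from 50 to 100 kb, -0.12 and -0.065 from 100 to 150 kb, and -0.041 and -0.011 beyond, lower side first. The band from 10 to 50 kb averages over a difference between the sides at 10 to 20 kb, with 0.26 below the viewpoint and 0.0045 above it. With no centring all 41 windows were higher in KO, those over Ctsb and Blk included.

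At Foxa2, the clearest centred difference lay in the long non-coding RNA 9030622O22Rik, which begins 6.40 kb away on the lower side. Its 3 windows from 40 to 70 kb had 0.20, 0.27 and 0.23, and only the middle, at 50 to 60 kb (chr2:147986915-147996914; WT 0.57, KO 1.00), passed the size. About a line of KO on WT it had 0.24, and no longer did. The 3 lowest values were -0.23 and -0.18 below Foxa2, at 130 to 140 and 190 to 200 kb, and -0.21 above it, at 30 to 40 kb. About the line of KO on WT, the last of these had -0.26 and passed the size. A line of score on log2 distance was fitted to both sides of each column together. Above it, the higher side had a local top at 30 to 40 kb in WT (0.21), a small shoulder, but not in KO (-0.072). From 50 to 150 kb the higher side of Foxa2 had a centred mean of 0.024 and -0.014 in its 2 bands. Beyond 150 kb it was -0.10, resting on 39 positions, with 0% of them above 0. The lower side had 0.087 from 10 to 50 kb, 0.16 from 50 to 100 kb, -0.094 from 100 to 150 kb and -0.043 beyond. In all, 94 positions of the Foxa2 viewpoint have a WT score but no KO score, and these were not summarised by distance or side.

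The bands under 10 kb are outside the windows, and those on the higher side of Gata6 and the lower side of T had the 2 greatest band means of all. On the higher side of Gata6, within the Gata6 gene, 15 positions between 3.05 and 9.59 kb had scores from 2.70 to 3.50 in WT and from 2.29 to 2.72 in KO, and the centred difference averaged -0.61 (range -0.82 to -0.33). On its lower side, over part of Gata6os, a long non-coding RNA beside Gata6, the 17 positions averaged -0.0033. At T the pattern was on the other side: 11 lower-side positions averaged -0.32 (range -0.72 to -0.050), with 3.80 in WT and 2.86 in KO at the nearest of them, while 14 higher-side positions, 11 of them in the T gene, averaged -0.083. At Foxa2 both sides were slightly lower in KO, at -0.092 and -0.13, and at Gata4 both were higher, at 0.15 and 0.13. Scores this close to a viewpoint are infinite within 2.98 kb, so these bands adjoin positions that could not be used.

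**Figure D4:**
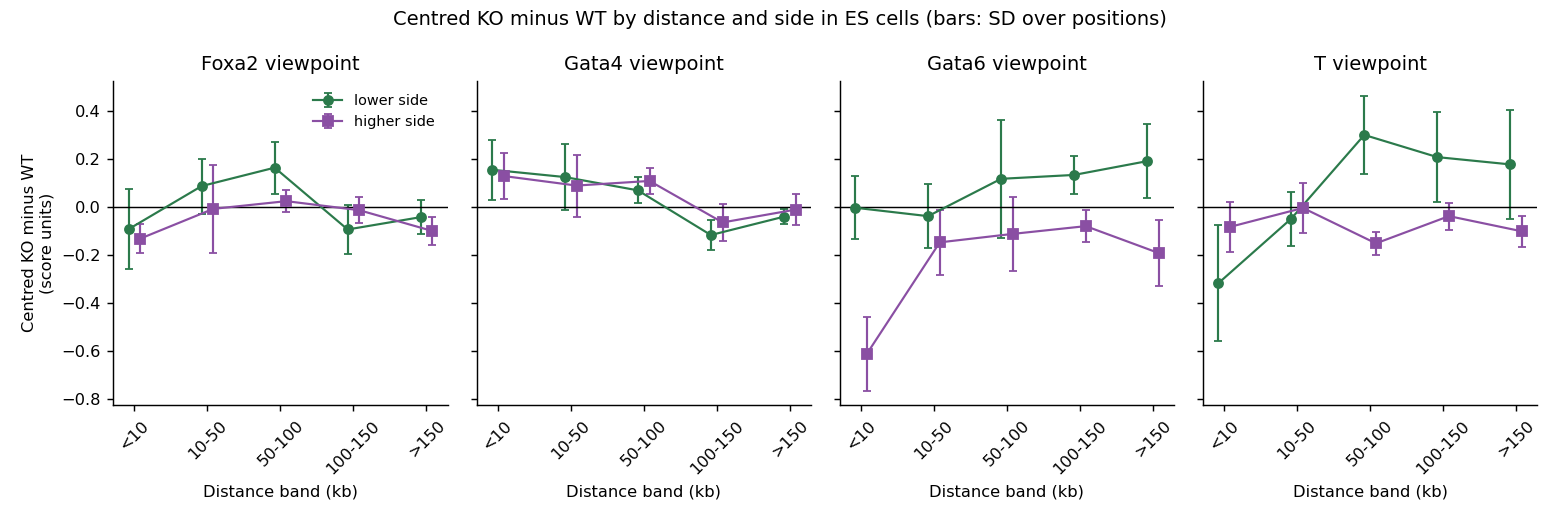
Centred KO minus WT (score units, vertical) by distance band in kb (horizontal) on the lower (green circles) and higher (purple squares) side of each viewpoint, as means over positions with bars for the SD over positions, which is not a replicate error. The sides part at Gata6 and T, with 0.30 against -0.15 at 50 to 100 kb of T, and lie close together at Gata4.

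The fall with distance itself was much the same in both genotypes. The slope of score on log2 distance, from 10 kb outward, differed by at most 0.088 score units per doubling of distance. On the lower side KO was shallower at Gata6 (-0.55 against -0.63 in WT) and T (-0.62 against -0.69) and steeper at Gata4 (-0.99 against -0.90) and Foxa2 (-0.53 against -0.46). On the higher side the slopes of KO and WT were -0.79 and -0.78 for T, -0.90 and -0.89 for Gata6, -0.77 and -0.72 for Gata4, and -1.13 and -1.10 for Foxa2.

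A line of score on log2 distance was also fitted to both sides of each column together. A height above this shared line therefore also holds any difference between the sides. At Foxa2, for 1, the WT slope was -0.46 on the lower side and -1.10 on the higher. A local top had to stand above the windows before and after it, so the outermost window of a side could not be one. The highest local top above the shared line in WT was at the same window in KO for 4 of the 8 sides. These were 200 to 210 kb below Foxa2 (0.90 above the line in WT, 0.95 in KO), 110 to 120 kb above Gata4, in the transcript Gm36165 and its neighbours (0.45 and 0.46), 160 to 170 kb above Gata6 (0.28 and 0.18), and the hump below T (0.85 and 0.62). In KO the highest local top below T was instead at 180 to 190 kb, in Ccr6, at 0.71. Below Gata6 the WT top at 40 to 50 kb (0.62) had its nearest KO counterpart at 30 to 40 kb (0.63). The highest KO top on that side was at 200 to 210 kb (0.84). The WT score was still rising at the outermost window, from -0.27 at 200 to 210 kb to -0.22 at 210 to 220 kb. Whether the highest top below Gata6 differed in place between genotypes therefore cannot be told from these tops. The 3 other sides had low WT tops, at 0.21 above Foxa2, 0.0075 above T and -0.17 below Gata4. The nearest KO tops to these were 10 kb, 40 kb and 10 kb away.

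Over annotated genes, 29 of the 51 that overlap the profiles had at least 10 usable positions, and their median centred difference was -0.021, with 13 higher and 16 lower in KO. Only 2 of the 29 (6.90%) passed 0.25, both of them among the 13 protein-coding spans (15.4%) and both below T. Ccr6 had -0.74 in WT and -0.60 in KO, a centred 0.42 with a range over positions from 0.21 to 0.53. Sft2d1 had -0.72 in WT and -0.63 in KO, a centred 0.38, and 0.20 within 5 kb of its start site, at the edge of the hump. As deposited these spans differed by 0.14 and 0.096. Mpc1 and Gm33799, at the hump between them, had -0.042 and -0.0062 after centring and -0.32 and -0.29 as deposited. T2 had 0.032 and the T gene itself -0.038.

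Among the viewpoint genes, Gata6 had a centred -0.23 (WT 2.18, KO 2.00) with a range over its 65 positions from -0.82 to 0.23, and Gata4 had 0.12 (WT 2.47, KO 2.89). The Foxa2 span had 1 usable position and was not averaged. Near Gata4, the squalene synthase gene Fdft1 had 0.084, the DNA glycosylase gene Neil2 0.037 and Fam167a 0.033, while Ctsb had -0.073 and Blk -0.094. Of the non-coding spans, the greatest were -0.24 at 9130001E16Rik and 0.14 at Gm35814, both below Gata6, followed by 0.13 at Gm16702 near T and 0.12 at 9030622O22Rik.

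**Figure D5:**
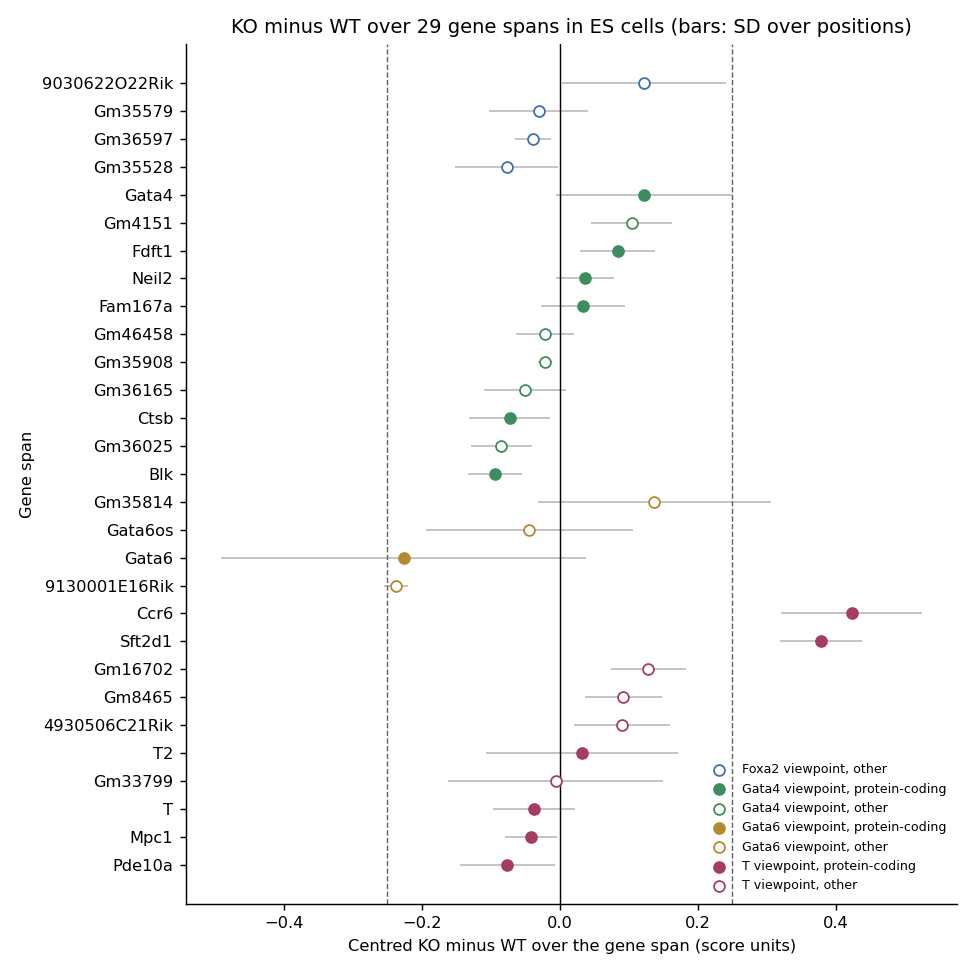
Centred KO minus WT (score units, horizontal) averaged over each of 29 gene spans (vertical), coloured by viewpoint, filled for protein-coding genes and open for others, with bars for the SD over positions and dashed lines at 0.25 either way. Ccr6 and Sft2d1, at 0.42 and 0.38, are the spans past the dashed lines.

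Beside these values, KO against WT in EB, which uses other columns, was more uneven at every locus. Its SD across windows was 0.21 in ES and 0.61 in EB for T, 0.19 and 0.33 for Gata6, 0.11 and 0.17 for Gata4, and 0.11 and 0.39 for Foxa2. In EB 69 of 161 windows (42.9%) reached a centred 0.25, against 19 in ES. Of those 19, 14 had the same sign in EB, against 93 of all 161 windows. Of the 19, 11 were past 0.25 in EB with the same sign and 3 with the opposite sign. The sign was shared in 32 of 42 windows at T, 26 of 38 at Foxa2, 23 of 41 at Gata4 and 12 of 40 at Gata6. At T the Ccr6 span had a centred 0.42 in ES and 1.11 in EB, whereas Sft2d1 had 0.38 and 0.0034. Whether the genotypes differ more in EB than in ES could not be tested with 1 column a group.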

How the data were processed

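Contact scores come from the authors' deposited tables, 1 table per viewpoint and 1 column per stage and genotype, per the file headers. Each column pools the 2 libraries of a group, so there are no replicates and no test was made. No label or header used here states the unit of the score, its log base, its smoothing, its scaling or its depth. Per the submitters' processing notes the build was mm10, with BWA, STAR and deepTools among the tools and no role stated.

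Infinite and missing scores were left out. Positions at least 10 kb from the viewpoint were averaged in 10 kb windows with at least 10 positions, and the median of KO minus WT over a viewpoint's windows was removed. Bands and gene spans keep nearer positions. Gene spans and start sites came from RefSeq tables of GRCm38.p6, the assembly that mm10 represents, and sides are named by coordinate. Windows were named as the 3 highest and 3 lowest at each viewpoint; all protein-coding spans with at least 10 positions were named. Members, lists and the size of 0.25 were chosen with earlier results of these data known. Alternatives were other widths, medians, centrings, sizes and exclusions. Simulated KO profiles were made from ES WT with a constant, a small smooth wave and steps of 0.5 on whole windows. Among 161 windows, 32 of 32 changed ones were recovered and 0 others were wrongly counted. No noise was added and the steps were well over the counted size, so this outcome follows from the setting. It checks the code, and bears neither on changes near 0.25 nor on wrong counts in the deposited profiles. Python 3.11.15, numpy 2.4.6, pandas 2.3.3 and matplotlib 3.10.9 were used.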

Additional observations from a re-analysis of the deposited data

Results flagged for a closer look

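At 3 windows, all of the Gata6 viewpoint, the centred difference between KO and WT passed 0.25 in both stages with opposite signs. On the lower side it was 0.41 in ES and -0.34 in EB at 190 to 200 kb, around Gm18764, and 0.26 in ES and -0.57 in EB at 90 to 100 kb, in Gm35814. On the higher side it was -0.32 in ES and 0.29 in EB at 50 to 60 kb. The difference between the stages was not tested, since each value rests on 1 pooled column per group.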

How the results depend on the processing

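The count of 19 windows (11.8%) became 73 with no centring, 30 with a size of 0.2 and 12 with a size of 0.3. Under the other 12 alternatives its share of windows stayed within 1.5 times, between 9.09% without Gata6 and 14.9% with centring by windows from 100 kb. Without T it was 11 of 119 windows (9.24%), and without Gata6 no window was lower in KO by 0.25. The 12 values of level, unevenness and side contrast each moved by less than 0.1 with windows of 5 or 20 kb, 20 kb left out at the viewpoint, or window medians. That limit says little of the Gata6 level (0.047) and the side contrasts at Foxa2 (0.051) and Gata4 (-0.015), themselves under 0.1. The contrast at Gata4 ranged from -0.0054 with 5 kb windows to -0.030 with 20 kb left out. The 8 slope differences are themselves under 0.1, and with 20 kb left out those on the higher side turned from -0.0062 to 0.019 at Gata6 and from -0.0088 to 0.0015 at T, and went from -0.022 to -8.4e-05 at Foxa2. Of the 24 named windows, 3 changed sign, all with no centring and all at Gata4: 130 to 140 kb and 120 to 130 kb on the lower side became 0.14 and 0.15, and 130 to 140 kb on the higher side 0.15. The named windows at 180 to 200 kb and 90 to 100 kb below T fell under 0.25 with no centring, at 0.20, 0.18 and 0.18. So did 170 to 180 kb above Gata6, at -0.22. About the line of KO on WT, 50 to 60 kb below Foxa2 (0.24) and both Gata4 windows lost the size, and 30 to 40 kb above Foxa2 gained it (-0.26). With centring by the mean, 20 to 30 kb below Gata4 lost it (0.24). With centring by windows from 100 kb, 60 to 70 kb below Foxa2 (0.27) and 20 to 30 kb above Gata4 (0.29) gained it. With no centring, 6 named windows gained it. No paired analysis was possible because the columns pool the libraries and carry no replicate numbers, and for the same reason leaving out a replicate was not run. Depth is unknown, so no limit of detection can be given.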
